A study of Mus musculus with 50 samples.

Results

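The libraries described here are 6 RNA-seq libraries of LSK cells from Flt3 mutant mice, 3 taken at the 4-week time point and 3 at the 2-week time point. They were chosen by genotype, cell population and time in the labels, and they are 6 of the 50 samples of the series. LSK cells are the lineage-negative, Sca1-positive, Kit-positive cells of mouse bone marrow, the fraction that holds the blood stem cells and the multipotent progenitors. All Flt3 mice carried a mutant Flt3 allele that a recombinase switched on. The labels name Cre, Dre and Flp and do not say which one, under which promoter, was used in which mouse, and they give no ages. Flt3 LSK libraries at 6 and 8 weeks, LSK libraries of wild-type (WT) mice at 4 weeks, and granulocyte-monocyte progenitor (GMP) libraries of the same mouse groups, 3 a group, serve as comparisons. Each library of a group carries its own code, which the LSK and GMP libraries of the same group and replicate share. The labels do not say whether a code marks a mouse, or whether the 3 libraries of a group come from separate mice. The p-values below therefore measure the spread between libraries, which may be technical.

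Flt3 is a receptor tyrosine kinase that supports multipotent and lymphoid-primed progenitors and the formation of dendritic cells, and activating mutations of it are common in acute myeloid leukemia. A plasma cell is the end stage of the B lineage. It puts much of its RNA into immunoglobulin chains and carries a large secretory apparatus for them. Early response genes such as Fos and Egr1 are switched on within minutes of a growth factor signal, a stress or the handling of cells, without new protein being made, and their RNAs are short-lived.

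The 3 libraries at 4 weeks held 1068300 to 3030228 counts each and those at 2 weeks 826477 to 1383972. Counts were found for 12198 to 13867 genes at 4 weeks and for 12502 to 13107 genes at 2 weeks. The 50 genes with the most counts took 12.59%, 11.2% and 12.17% of the counts at 4 weeks, against 20.78%, 20.02% and 25.59% at 2 weeks. Levels are given as CPM, counts scaled to a common library size with TMM, a factor that equalises the bulk of genes between libraries. LSK libraries were scaled among the 15 LSK libraries and GMP libraries among all 30. Levels of LSK and GMP set side by side are therefore not on exactly the same scale. Differences are log2 fold changes, 4 weeks over 2 weeks, with their standard errors and adjusted p-values from edgeR's quasi-likelihood test with Benjamini-Hochberg adjustment over all 9892 genes tested, and a gene is said to rise or fall where that p is under 0.05. By that rule 816 genes fell, 8.25% of those tested, and 434 rose, 4.39%. The median difference of all genes was 0.01. The counts leaned on single libraries: without replicate 3 of the 2-week group 503 genes fell and 198 rose, and without replicate 2 or replicate 3 of the 4-week group 255 and 283 rose. The fit also draws its spread from the other LSK groups. Without replicates 2 and 3 at 8 weeks, a setting chosen after seeing the data, 980 genes fell and 588 rose. Of these libraries, replicate 3 lay apart from the other 14 LSK libraries on the third principal component, at -67.1 against -18.4 to 18.0. On the first component replicate 3 lay at -38.9, among the 2-week libraries at -36.5, -41.8 and -51.4. On the second it lay at -42.7, away from them at 38.7, 31.5 and 44.5.

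Flt3 RNA did not differ detectably. Its level was 264.5, 235 and 243.2 CPM at 4 weeks, against 263.9, 287.2 and 246.5 CPM at 2 weeks (log2 difference -0.10 ± 0.14, adjusted p = 0.704). Reads were counted per gene, so these values cannot tell the mutant from the normal allele. Of the 8 genes of the sort markers, Cd34, a surface sialomucin of early progenitors, rose: it had 897.3, 912.2 and 809.6 CPM at 4 weeks, against 532.1, 463.1 and 467.6 CPM at 2 weeks (0.84 ± 0.14, adjusted p = 0.000133). Ly6a, which encodes Sca1, was at 148, 223.3 and 338.7 CPM at 4 weeks and at 440.8, 235.7 and 431.9 CPM at 2 weeks (adjusted p = 0.319). In Flt3 GMP, a population usually sorted as Sca1-negative, it was 9.19 to 18.8 CPM at 4 weeks and 6.97 to 19.4 CPM at 2 weeks. Kit, the receptor for stem cell factor, had 53.3, 51.3 and 71.5 CPM at 4 weeks and 60.4, 35.7 and 42.6 CPM at 2 weeks (adjusted p = 0.281), and WT LSK had 203.1 to 266.8 CPM. Both sort markers were thus present at both times. The libraries also held RNA of genes that mark other cells, as described below.

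The clearest feature of the 2-week LSK libraries was immunoglobulin RNA. All immunoglobulin genes together took 0.0441%, 0.0373% and 0.0349% of the counts at 4 weeks, against 5.60%, 2.77% and 8.19% at 2 weeks. The 95% Wilson intervals at 2 weeks were 5.55 to 5.65%, 2.74 to 2.80% and 8.14 to 8.24%. They cover counting error only, and the 3 libraries at 2 weeks differed by more than that. The lowest library at 2 weeks was far above every library at 4 weeks. In Flt3 GMP the share was 0.0264%, 0.0336% and 0.0358% at 4 weeks and 0.0265%, 0.0115% and 0.0242% at 2 weeks. Flt3 LSK at 6 weeks had 0.0257 to 0.0449% and at 8 weeks 0.0338 to 0.0434%, and WT LSK at 4 weeks 0.0745 to 0.263%. Of the 152 immunoglobulin genes of the table, 10 passed the filter on low counts, largely through the group where they are high. All 10 fell, where 8.25% of all genes did, which describes them and tests nothing about them as a set. In bulk RNA, fewer cells of a type and less RNA per cell cannot be told apart.

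**Figure D1:**
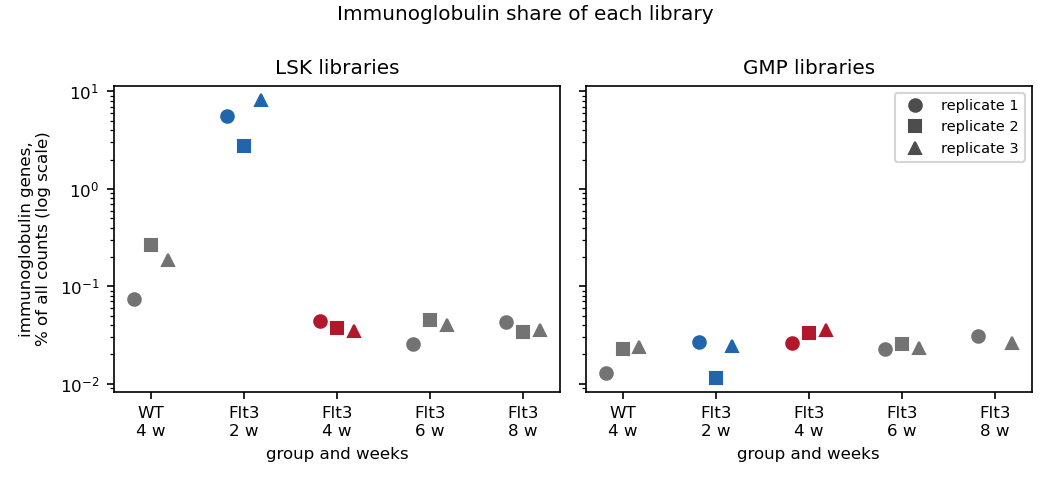
Share of all counts in immunoglobulin genes (percent, log axis) in each library, for Flt3 LSK and Flt3 GMP by time in weeks and for WT at 4 weeks. Each point is 1 library. The 3 LSK libraries at 2 weeks lie at 5.60%, 2.77% and 8.19%, and the 3 at 4 weeks between 0.0349% and 0.0441%. The 8-week GMP library with the fewest counts is left out.

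The constant regions that could be matched show some of the kinds of antibody chain present. Igha, Ighg2b, Ighg3 and Iglc1 were not matched to a gene symbol, so they have no values here. Igkc, the constant part of the kappa light chain, had 18.4, 10.8 and 36.4 CPM at 4 weeks, against 53538, 20950 and 69162 CPM at 2 weeks (log2 difference -10.95 ± 1.16, adjusted p = 0.000202). Iglc2, a lambda constant region nearly identical to Iglc3, so that reads may be divided between them, had 2 counts over all 3 libraries at 4 weeks and 19728 at 2 weeks. Scaled to depth it was 20514 times as abundant at 2 weeks, with an exact 95% counting interval of 5678 to 169401. Iglc2 and Iglc3 together made up 11.3%, 26.0% and 22.3% of the counts of Igkc, Iglc2 and Iglc3 in replicates 1, 2 and 3 at 2 weeks. Ighm, the heavy chain of IgM, was present at both times, with 411.2, 346.7 and 295.4 CPM at 4 weeks and 2606, 2598 and 8226 CPM at 2 weeks (-3.68 ± 0.58, adjusted p = 0.00249). Ighg1, the heavy chain of IgG1, had 1 count at 4 weeks and 1516 at 2 weeks, a ratio of 3153 with an interval of 565 to 124609, and its call was lost without any 1 of the 4-week libraries (adjusted p 0.0562 to 0.118). Heavy-chain counts were uneven among the libraries at 2 weeks: Ighg2c had 2, 72 and 6 counts in replicates 1, 2 and 3, and none at 4 weeks.

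The variable segments also differed from library to library. Of 100 kappa variable genes in the table, 38, 37 and 52 had at least 1 count in replicates 1, 2 and 3 at 2 weeks, with 380, 193 and 497 counts in all. At 4 weeks 1, 0 and 0 of them had a count. Each plasma cell clone carries its own rearranged segments. The leading ones were not shared evenly among libraries. Igkv6-14 had 92 counts in replicate 1, 0 in replicate 2 and 8 in replicate 3. Igkv4-72 had 7, 1 and 80 counts, and Igkv6-23 had 0, 5 and 77. Igkv1-110, with 16, 28 and 34 counts, was found in all 3. These 4 segments were named after their values were seen.

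The genes of the plasma cell program moved with the immunoglobulins. Of 34 listed genes 30 were in the table and 25 were tested, and 23 of the 25 fell and 0 rose, where 8.25% of all genes fell. Their median log2 difference was -3.68. Those at or near 0 at 4 weeks passed the filter on low counts through libraries of other groups, chiefly those at 2 weeks, so this count and median describe the list and do not test it. Igj (Jchain), which joins IgM and IgA into polymers, had 5.26, 1.80 and 8.86 CPM at 4 weeks, against 15658, 6254 and 18934 CPM at 2 weeks (-11.06 ± 0.88, adjusted p = 3.02e-05). At 2 weeks there were 29.2, 29.8 and 27.4 Igj counts per 100 Igkc counts in the 3 libraries, a nearly constant ratio. Its size was not particular to 2 weeks. WT LSK had 32.1, 22.7 and 38.1, and 4-week LSK had 28.6, 16.7 and 24.3, the latter on only 28, 12 and 115 Igkc counts. Mzb1, a chaperone of the endoplasmic reticulum that helps IgM assembly and secretion, listed in the table under its older name 2010001M09Rik, had 0, 2.70 and 0.632 CPM at 4 weeks and 275.2, 122 and 419.3 CPM at 2 weeks (-8.15 ± 0.64, adjusted p = 6.92e-07). All 3 libraries at 2 weeks lay above all 3 at 4 weeks for each of these genes.

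Surface and regulatory genes of plasma cells followed. Sdc1 encodes CD138, the syndecan by which plasma cells are usually sorted. It had 0.658, 2.70 and 0 CPM at 4 weeks and 29.5, 13.3 and 31.1 CPM at 2 weeks (-4.85 ± 0.82, adjusted p = 0.00023). Tnfrsf17, the survival receptor BCMA, had 1 count at 4 weeks and 104 at 2 weeks, a ratio of 216.3 with an interval of 37.97 to 8624. Pou2af1, a B lineage coactivator, had 0 counts at 4 weeks and 82 at 2 weeks, at least 56.84-fold lower at 4 weeks if the 4-week group is given 3 counts. Slamf7, a surface receptor of plasma cells and several other immune cells, had 14.5, 7.20 and 12.3 CPM at 4 weeks and 81.4, 141.9 and 192.4 CPM at 2 weeks (-3.57 ± 0.67, adjusted p = 0.00463). In GMP, Slamf7 had 20.2, 12.5 and 14.8 CPM at 4 weeks and 110.7, 185.8 and 106 CPM at 2 weeks. The plasma cell regulators Prdm1 and Irf4 were too low to be tested. Prdm1 had 0 counts at 4 weeks and 9 at 2 weeks.

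Secretory genes that many cells use fell by less. Xbp1, the transcription factor that expands the endoplasmic reticulum, had 404.6, 426.8 and 406.1 CPM at 4 weeks and 812.9, 608.3 and 1025 CPM at 2 weeks (-0.98 ± 0.18, adjusted p = 0.000718). Edem1, which directs misfolded glycoproteins to degradation, fell by 1.82 ± 0.22 on the log2 scale (adjusted p = 5.21e-06), and Txndc5, a protein disulfide isomerase, by 1.51 ± 0.19 (adjusted p = 1.39e-05). Derl3, a degradation factor of the same organelle, fell further, by 6.22 ± 0.65 (adjusted p = 4.43e-07). Fkbp11 and Spcs3 were the 2 tested genes of the list that did not pass, at log2 differences of 0.05 and 0.18. The general unfolded protein response list, which includes chaperones such as Hspa5 and Calr, had 4 of 13 tested genes lower, where 8.25% of all genes were. Its median was -0.26, and the 4 became 2 without replicate 3 of the 4-week group. Hspa5 itself differed by -0.21 (adjusted p = 0.422).

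**Figure D2:**
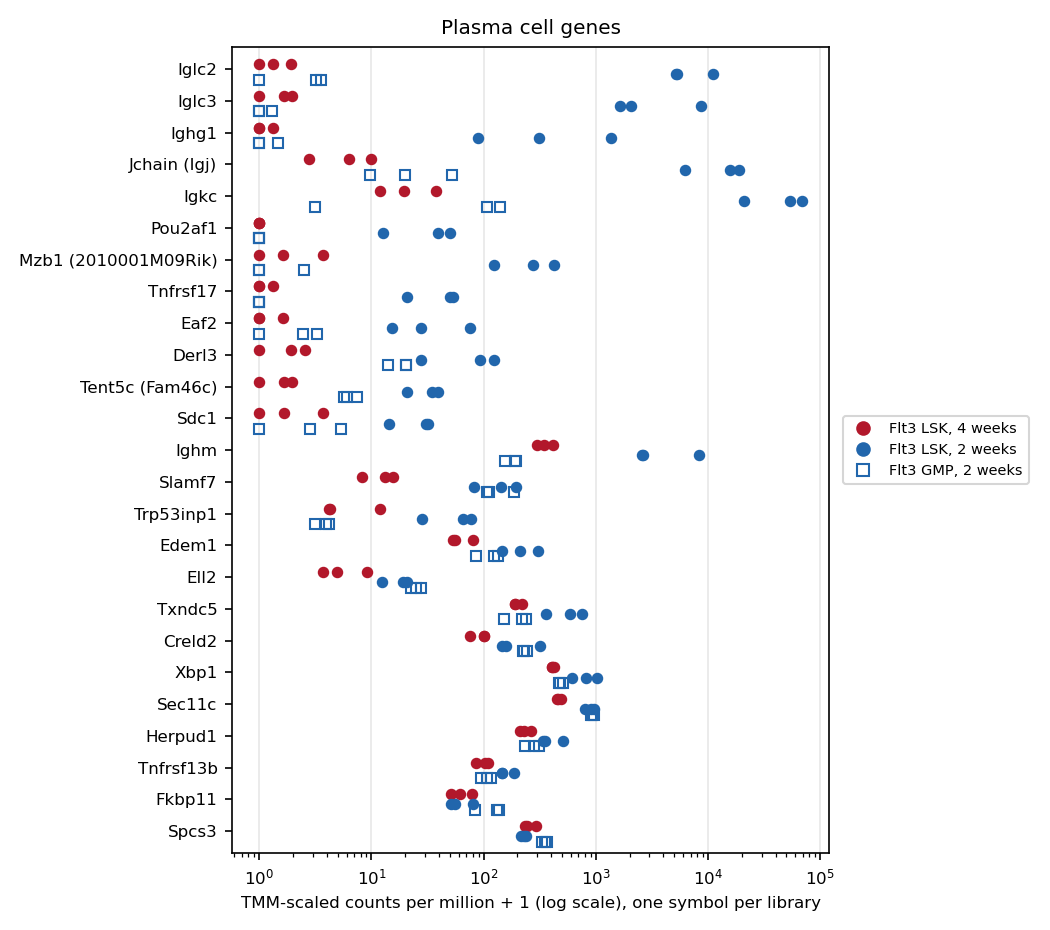
Levels of the 25 tested plasma cell genes (TMM-scaled CPM plus 1, log axis) in Flt3 LSK at 4 weeks and 2 weeks (filled circles) and Flt3 GMP at 2 weeks (open squares). Each symbol is 1 library, and genes run from the largest fall at the top. Igj stands at 1.80 to 8.86 CPM in 4-week LSK and at 6254 to 18934 CPM in 2-week LSK, and Xbp1 at 404.6 to 426.8 CPM and at 608.3 to 1025 CPM.

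Most markers of earlier B cells were at or near 0. Of 18 listed genes 3 were tested and 1 fell, where 8.25% of all genes did. The gene that fell was Blnk, an adaptor of the B cell receptor also used by other cells (-4.45 ± 0.86, adjusted p = 0.00088). Cd79a, a signalling chain of the B cell receptor, had 0 counts at 4 weeks and 4 at 2 weeks. Ms4a1, which encodes CD20, had 0 counts in all 3 libraries at 2 weeks, and Pax5, the factor that fixes B cell identity, had 0 at both times. Cd79b, the partner of Cd79a, was an exception, with 87.5, 70.2 and 81.9 CPM at 4 weeks and 130.6, 86.3 and 135.9 CPM at 2 weeks (-0.54 ± 0.20, adjusted p = 0.0723), and it passed without replicate 2 of the 2-week group (adjusted p = 0.0234).

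Library by library, replicate 2 was the lowest of the 3 at 2 weeks for 18 of the 23 plasma cell genes that fell, and replicate 3 the highest for 20. The level summed over the list was 2407, 2312 and 2152 CPM at 4 weeks, against 83143, 40533 and 122947 CPM at 2 weeks. In GMP it was 2979, 3047 and 2918 CPM at 4 weeks and 3429, 3139 and 3280 CPM at 2 weeks. With the immunoglobulin genes and Igj taken out of the table and the rest refitted, 16 of 19 tested genes of the list fell. Without any 1 library, 20 to 23 did.

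The early response genes were also higher at 2 weeks. Of 25 listed genes 19 were tested, 13 fell and 1 rose, where 8.25% and 4.39% of all genes did. The median log2 difference was -2.29. Between 13 and 15 genes fell and 1 rose in every alternative analysis. Fos, a component of the AP-1 transcription factor, had 84.9, 70.2 and 129.3 CPM at 4 weeks, against 1199, 1532 and 1451 CPM at 2 weeks (-3.84 ± 0.23, adjusted p = 1.93e-09). Its partner Jun had 50, 35.1 and 68.9 CPM at 4 weeks and 344, 310.4 and 281 CPM at 2 weeks (-2.55 ± 0.25, adjusted p = 1.12e-06). Fosb, Junb and Jund of the same family fell by 5.65, 2.69 and 1.67 on the log2 scale. The 3 libraries at 4 weeks lay below the 3 at 2 weeks for 13 of the 19 tested genes, where 15.5% of all genes were separated in that direction.

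Zinc finger factors and feedback regulators of the same response moved in the same direction. Egr1, a factor induced by growth factors, had 9.21, 9.91 and 7.27 CPM at 4 weeks and 129.2, 205 and 198.1 CPM at 2 weeks (-4.38 ± 0.30, adjusted p = 1.86e-10). Klf2, a factor that keeps lymphocytes and endothelium quiescent, had 37.5, 12.6 and 38.0 CPM at 4 weeks and 238.7, 412.5 and 489.5 CPM at 2 weeks (-3.62 ± 0.33, adjusted p = 2.48e-06). Zfp36, which hastens the decay of cytokine RNAs, had 57.9, 50.4 and 111 CPM at 4 weeks and 419.8, 503.8 and 518.3 CPM at 2 weeks (-2.66 ± 0.22, adjusted p = 3.88e-08). Btg2, an antiproliferative early gene, had 75.7, 38.7 and 44.0 CPM at 4 weeks and 162.9, 197.5 and 200.4 CPM at 2 weeks (-1.83 ± 0.27, adjusted p = 7.97e-05). Dusp1, a phosphatase that switches off MAP kinases and the leading gene of the MAP kinase feedback list, had 55.9, 31.5 and 74.3 CPM at 4 weeks and 273.8, 473.1 and 392.8 CPM at 2 weeks (-2.77 ± 0.31, adjusted p = 3.66e-05). Of the 8 tested genes of that feedback list, Dusp1 and Dusp6 fell and Dusp5 rose, where 8.25% of all genes fell and 4.39% rose. The call of Dusp5 was lost without replicate 3 of the 4-week group (adjusted p = 0.0583).

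Myc was the exception. This factor drives ribosome production and growth, and it had 1071, 847.3 and 1016 CPM at 4 weeks, against 557.4, 575.1 and 563.2 CPM at 2 weeks (0.79 ± 0.12, adjusted p = 8.46e-05). Ier3, Nr4a1, Nr4a2, Maff and Csrnp1 were tested and did not pass, at differences of -0.41, -1.51, -1.67, -0.76 and -0.17. Of the genes too low to test, Atf3, a stress-induced factor, had 3 counts at 4 weeks and 47 at 2 weeks, a ratio of 32.6 with an interval of 10.5 to 164. Egr2, a relative of Egr1, had 0 counts at 4 weeks and 14 at 2 weeks, at least 9.71-fold lower at 4 weeks.

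**Figure D3:**
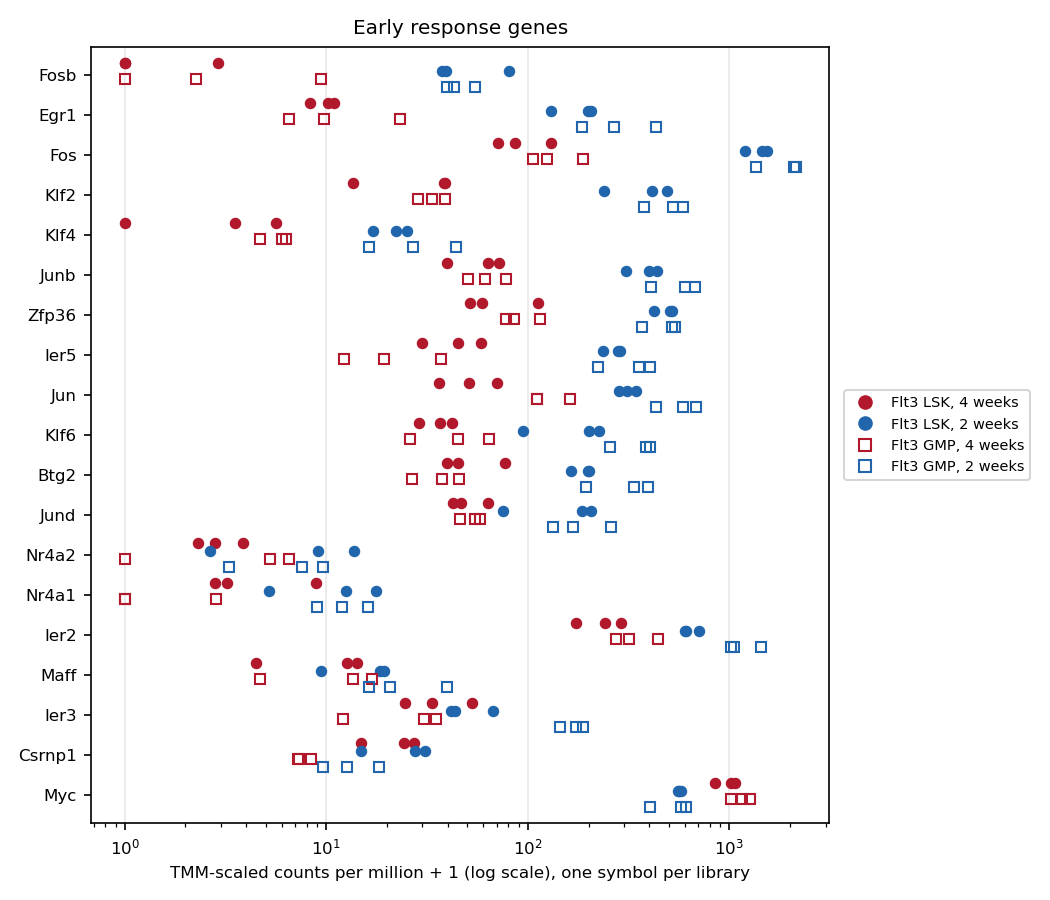
Levels of the 19 tested early response genes (TMM-scaled CPM plus 1, log axis) in Flt3 LSK (filled circles) and Flt3 GMP (open squares) at 4 weeks and 2 weeks. Each symbol is 1 library, and genes run from the largest fall to the largest rise in LSK. Fos lies at 70.2 to 129.3 CPM in 4-week LSK and at 1199 to 1532 CPM in 2-week LSK, and Myc, in the other direction, at 847.3 to 1071 CPM and at 557.4 to 575.1 CPM.

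Early response genes were also high in GMP at 2 weeks. Fos had 104.8, 122.8 and 186.9 CPM in 4-week GMP and 1360, 2100 and 2137 CPM in 2-week GMP. The difference between the LSK change and the GMP change was -0.11 ± 0.32 for Fos (adjusted p = 0.994) and 0.10 ± 0.51 for Egr1 (adjusted p = 1), which does not show that the changes were equal. Across all 10287 genes of that test 0.992% passed. Of the 20 early response genes in it, 1 passed, Ier3, in the direction in which 0.574% of genes did. It had 23.7, 32.4 and 51.6 CPM in 4-week LSK and 66.0, 40.7 and 42.6 CPM in 2-week LSK, against 11.0, 33.8 and 29.6 CPM in 4-week GMP and 143.4, 172.8 and 186.9 CPM in 2-week GMP (2.29 ± 0.41, adjusted p = 0.000745). Of the 25 plasma cell genes 8 passed, all with the larger fall in LSK, where 0.418% of genes passed in that direction. Members near 0 in most other groups passed the filter on low counts chiefly through 2-week LSK. This count therefore describes the list and does not test it. Igkc was among the 8 (-8.86 ± 1.62, adjusted p = 0.00601), although not without replicate 2 or replicate 3 of the 4-week GMP. Ighm was another (-4.41 ± 0.61, adjusted p = 0.000347). Among the 2-week LSK libraries, replicate 1 was the lowest for 9 of the 13 early response genes that fell. Replicate 2 was the lowest for 18 of the 23 plasma cell genes. In 2-week GMP, immunoglobulin genes took no more than 0.0265% of the counts. Whether the early response and plasma cell RNAs came from the same cells was not tested.

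The promoters of 3 early genes are shown because each holds a short element that members of this response are known to use. They are the 250 bases before the annotated start on the gene's own strand (RefSeq, GRCm38.p6). Capitals mark TGACGTCA, the cyclic AMP response element, in Dusp1 (chr17:26508473-26508722, minus strand) and Btg2 (chr1:134079156-134079405, minus strand), and the CArG box of serum response factor in Zfp36 (chr7:28379229-28379478, minus strand).
Dusp1: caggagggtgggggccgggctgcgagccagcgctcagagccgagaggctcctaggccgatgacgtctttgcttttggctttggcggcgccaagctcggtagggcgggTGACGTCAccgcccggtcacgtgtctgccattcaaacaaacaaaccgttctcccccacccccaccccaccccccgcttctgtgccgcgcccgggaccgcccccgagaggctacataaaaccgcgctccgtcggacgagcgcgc
Btg2: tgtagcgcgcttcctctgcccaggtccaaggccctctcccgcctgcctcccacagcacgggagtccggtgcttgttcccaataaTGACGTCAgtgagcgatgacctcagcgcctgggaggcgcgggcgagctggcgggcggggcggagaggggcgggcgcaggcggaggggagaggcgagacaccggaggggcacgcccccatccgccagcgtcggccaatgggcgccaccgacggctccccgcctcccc
Zfp36: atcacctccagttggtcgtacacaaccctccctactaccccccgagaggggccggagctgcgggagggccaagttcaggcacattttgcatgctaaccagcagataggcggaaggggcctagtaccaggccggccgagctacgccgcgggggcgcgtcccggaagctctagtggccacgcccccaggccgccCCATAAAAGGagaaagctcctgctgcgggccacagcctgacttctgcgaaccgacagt
The capitals begin 143, 166 and 58 bases before the start in Dusp1, Btg2 and Zfp36. Both strands were searched. Of the 14 genes made up of the 13 that fell and Dusp1, 12 had a promoter in the table, 2 held TGACGTCA and 1 held a CArG box, where 1.55% and 1.47% of 32851 promoters did. A match is a description of these letters and not of a bound site.

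Antigen presentation and dendritic cell genes were a further group that was higher at 2 weeks. Of 19 tested genes 18 fell, where 8.25% of all genes did, with a median of -2.66, and Tcf4 did not pass (-0.43). H2-Aa, the alpha chain of the class II molecule I-A, had 1352, 391.7 and 653.7 CPM at 4 weeks, against 3676, 6005 and 6408 CPM at 2 weeks (-2.75 ± 0.58, adjusted p = 0.0117). Cd74, the invariant chain that escorts class II molecules, had 398, 264.7 and 210.9 CPM at 4 weeks and 1250, 3039 and 3457 CPM at 2 weeks (-3.15 ± 0.75, adjusted p = 0.0209). The groups did not overlap for either gene, but each had a wide spread: for H2-Aa, replicate 1 was the highest of the 4-week libraries and another replicate 1 the lowest of the 2-week libraries. Replicate 1 of the 2-week group was its lowest library for 16 of the 18 genes. Without replicate 2 or replicate 3 of the 4-week group 12 of the genes fell.

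Genes of the dendritic cell subsets are part of this list. Siglech, a lectin of plasmacytoid dendritic cells, had 3.29, 0 and 8.54 CPM at 4 weeks and 60.4, 59.8 and 61.1 CPM at 2 weeks (-3.65 ± 0.63, adjusted p = 0.000503). Xcr1, the chemokine receptor of cross-presenting dendritic cells, had 57.2, 16.2 and 28.8 CPM at 4 weeks and 151.6, 309.6 and 317.9 CPM at 2 weeks (-2.92 ± 0.50, adjusted p = 0.00275). Cd209a, a lectin of monocyte-related dendritic cells, had 13.2, 5.40 and 5.38 CPM at 4 weeks and 81.4, 75.5 and 82.9 CPM at 2 weeks (-3.34 ± 0.39, adjusted p = 2.71e-06). Irf8, a factor needed for dendritic cells and monocytes, had 847.3, 639.3 and 783 CPM at 4 weeks and 1516, 2290 and 2058 CPM at 2 weeks (-1.37 ± 0.30, adjusted p = 0.0123). In GMP the summed level of the list was 4657, 5616 and 6631 CPM at 4 weeks and 33659, 55399 and 33776 CPM at 2 weeks. In WT LSK it was 962, 1066 and 1420 CPM, below all 6 Flt3 LSK libraries, which had 8327, 3257 and 4667 CPM at 4 weeks and 20225, 35358 and 37459 CPM at 2 weeks. Flt3 LSK at 6 weeks had 4457, 7936 and 4519 CPM and at 8 weeks 6422, 6870 and 17575 CPM. The highest of these, replicate 3 at 8 weeks, came close to the lowest 2-week library. Xcr1 was at 0.730 to 3.50 CPM in WT LSK.

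Class II genes are known to share an upstream element with a CCAAT box, and 5 of the 6 class II genes that fell had a promoter in the table, all 5 with CCAAT or its complement ATTGG, against 33.8% of all promoters. A pair is shown (250 bases before the start, RefSeq, GRCm38.p6), with these letters in capitals, for H2-Aa (chr17:34287824-34288073, minus strand) and H2-Eb1 (chr17:34305617-34305866, plus strand).
H2-Aa: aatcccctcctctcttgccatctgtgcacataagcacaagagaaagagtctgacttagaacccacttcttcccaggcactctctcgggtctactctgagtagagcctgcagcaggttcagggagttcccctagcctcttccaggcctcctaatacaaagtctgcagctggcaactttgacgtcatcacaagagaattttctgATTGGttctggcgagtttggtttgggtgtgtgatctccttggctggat
H2-Eb1: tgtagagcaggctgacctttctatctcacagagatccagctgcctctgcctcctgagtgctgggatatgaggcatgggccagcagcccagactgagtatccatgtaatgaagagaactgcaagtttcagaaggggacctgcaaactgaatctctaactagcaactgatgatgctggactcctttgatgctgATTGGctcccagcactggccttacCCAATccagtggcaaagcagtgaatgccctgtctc
The capitals begin 48 bases before the start in H2-Aa and 59 and 35 bases before it in H2-Eb1. The H2-Aa promoter also holds TGACGTCA, left in small letters here. It was the 1 of these 5 class II promoters that did, where 1.55% of all promoters did. H2-Eb1 encodes the beta chain of I-E and had 1125, 337.7 and 545.5 CPM at 4 weeks, against 3034, 5401 and 6229 CPM at 2 weeks (-2.87 ± 0.64, adjusted p = 0.0153).

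Monocyte and macrophage genes fell in 11 of 14 tested, where 8.25% of all genes fell, with a median of -1.77. When replicate 2 or 3 of either group was left out, 5 to 7 of them fell. The members Klf4, Ccr2 and Irf8 also stand in other lists. Of 11 tested genes of iron-recycling macrophages 0 passed by edgeR, 0 at an unadjusted p under 0.05 and 0 by DESeq2. Their summed level was 40.5 to 71.1 CPM at 4 weeks and 41.5 to 63.1 CPM at 2 weeks, against 380.4 to 2446 CPM in WT LSK. Lymphoid genes moved in part. Of 11 tested 5 fell: Lsp1, a leukocyte actin-binding protein (-1.72 ± 0.17, adjusted p = 5.74e-07), Cd52, Ccr7, Ighm and Il7r. Il7r, the interleukin 7 receptor of lymphoid progenitors, had 0 counts at 4 weeks and 36 at 2 weeks, at least 24.96-fold lower at 4 weeks. Dntt, which adds bases to rearranging receptor genes, differed by 0.47 (adjusted p = 0.25).

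Basophil, mast cell and eosinophil genes fell in 7 of 10 tested (median -3.02), where 8.25% of all genes fell. Replicate 1 of the 2-week group was the highest for 7 of the 7. Prss34, a basophil protease, had 19.7, 12.6 and 22.1 CPM at 4 weeks and 1647, 264.7 and 435.4 CPM at 2 weeks (-5.34 ± 0.95, adjusted p = 0.00484). Mcpt8, another basophil protease, had 95.4, 103.6 and 92.0 CPM at 4 weeks and 972.9, 180.9 and 296 CPM at 2 weeks (-2.30 ± 0.54, adjusted p = 0.0197). Without replicate 3 of the 4-week group 4 of 10 fell, and in a fit of the 6 libraries alone 3 of the 7 genes that could be tested. In 2-week GMP the summed level of this list was 99010, 108567 and 82794 CPM, against 3328, 2633 and 2177 CPM in 4-week GMP. In LSK it was 954.6, 1000 and 966.8 CPM at 4 weeks and 4597, 1448 and 2130 CPM at 2 weeks. WT LSK had 1820, 2679 and 2514 CPM, within the range of the 2-week libraries. Of the 10 tested genes 1 was higher and 2 were lower in 2-week LSK than in WT LSK, where 11.1% and 7.99% of all genes were.

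Erythroid genes fell in 5 of 11 tested and megakaryocyte genes in 4 of 10, at low levels, where 8.25% of all genes fell. The fit of the 6 libraries alone tested fewer of them, and 2 of 3 erythroid and 1 of 4 megakaryocyte genes fell in it. The 4 megakaryocyte genes became 7 without replicate 2 of the 2-week group and 2 without replicate 3 of either group. Car1, a carbonic anhydrase of early erythroid cells, had 1.32, 0 and 5.06 CPM at 4 weeks and 112.3, 129.5 and 81.8 CPM at 2 weeks (-5.15 ± 0.60, adjusted p = 0.000134). Gata1, the erythroid and megakaryocytic master factor, had 1.32, 0 and 0.632 CPM at 4 weeks and 14.0, 6.64 and 8.06 CPM at 2 weeks (-3.60 ± 0.68, adjusted p = 0.000697). In WT LSK Gata1 stood at 67.2 to 80.4 CPM, above both. The megakaryocyte list summed to 1048, 1185 and 866.2 CPM in WT LSK, against 245.7, 93.78 and 240.7 CPM in 2-week LSK. Compared with WT LSK, 8 of 11 erythroid genes were lower in 2-week LSK and 1 was higher. For megakaryocyte genes 6 of 10 were lower and 0 higher, where 7.99% of all genes were lower and 11.1% higher. Late neutrophil genes were tested in 4 cases and fell in 3, S100a8, S100a9 and Ngp, each lowest in replicate 1 among the 2-week libraries. Markers of stroma and endothelium gave 0 calls among 3 tested by edgeR, 0 at an unadjusted p under 0.05 and 0 by DESeq2.

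**Figure D4:**
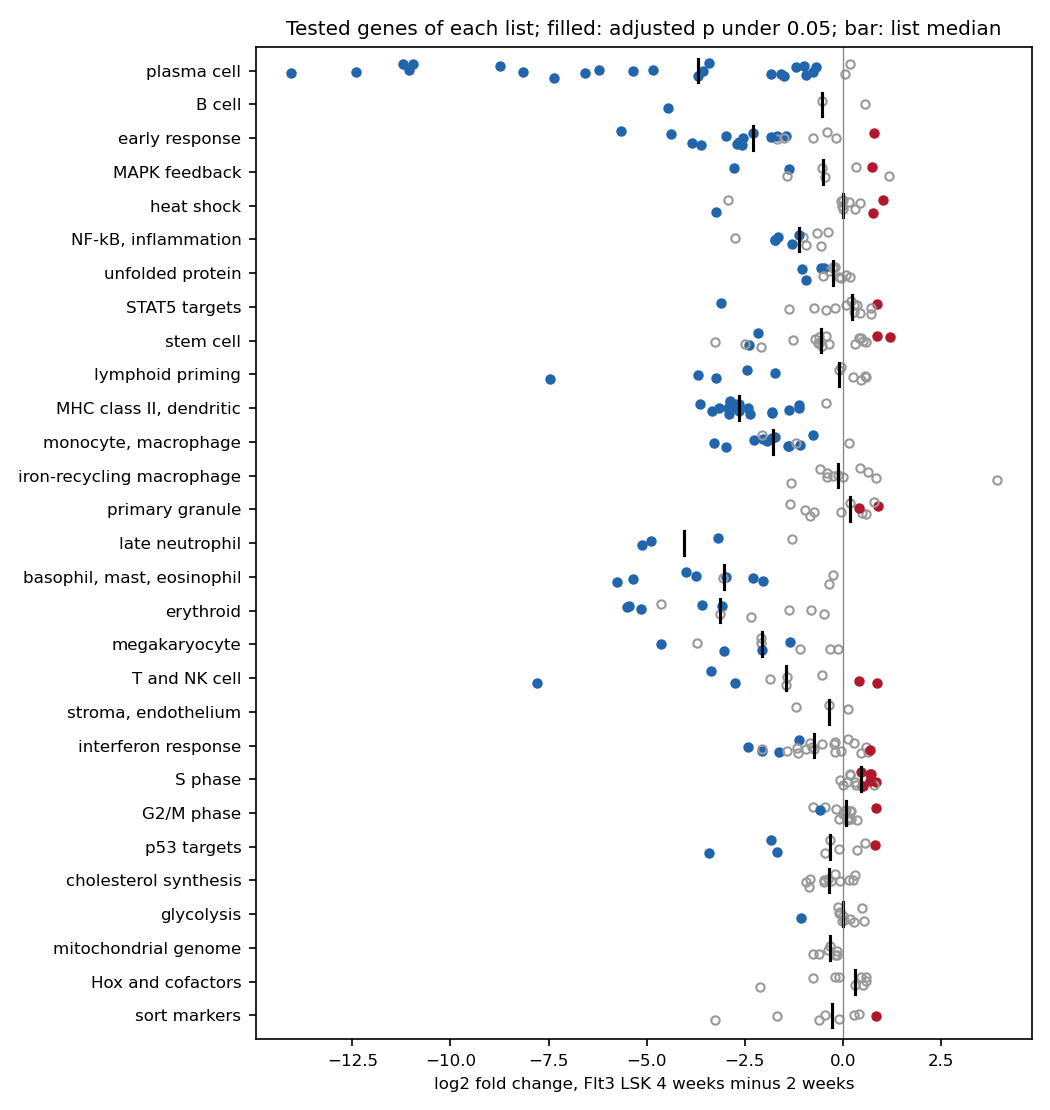
Log2 fold changes, Flt3 LSK at 4 weeks over 2 weeks, of the tested genes in each list. Each point is 1 gene, filled where its adjusted p is under 0.05, and the bar is the list's median. The medians of the plasma cell, early response and class II and dendritic lists are -3.68, -2.29 and -2.66, and that of the S-phase list is 0.47.

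**Figure D5:**
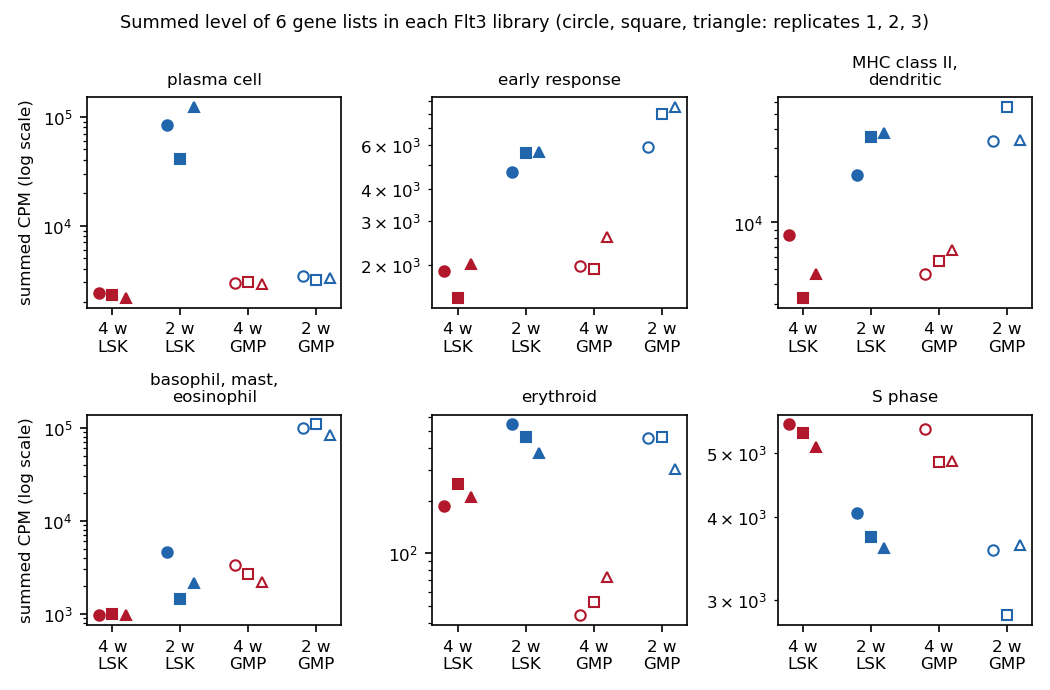
Levels summed over 6 gene lists (TMM-scaled CPM, log axis) in the Flt3 LSK libraries (filled) and Flt3 GMP libraries (open) at 4 weeks and 2 weeks. Each symbol is 1 library, and its shape gives the replicate. In LSK the plasma cell sum is 2152 to 2407 CPM at 4 weeks and 40533 to 122947 CPM at 2 weeks, and in GMP it stays between 2918 and 3429 CPM.

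Fewer listed genes were higher at 4 weeks. The S-phase genes rose in 8 of 16 tested and fell in 0, where 4.39% of all genes rose, with a median of 0.47. Mcm2, a subunit of the replicative helicase, had 440.1, 444.8 and 400.4 CPM at 4 weeks, against 249.9, 306.2 and 218.8 CPM at 2 weeks (0.72 ± 0.15, adjusted p = 0.0016). Mcm4 of the same helicase had 344.1, 349.4 and 282.4 CPM at 4 weeks and 220.4, 180.1 and 140.5 CPM at 2 weeks (0.85 ± 0.15, adjusted p = 0.00047). Genes of the G2 and M phases did not follow, with 1 higher and 1 lower of 16 and a median of 0.09. The S-phase list summed to 5431, 4843 and 4865 CPM in 4-week GMP and 3572, 2841 and 3629 CPM in 2-week GMP, and for 0 of its 16 genes, by edgeR, did the change differ between LSK and GMP, also at an unadjusted p under 0.05.

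Stem cell genes moved both ways. Of 20 tested, Gpr56 and Mycn rose and Procr and Pdzk1ip1 fell, where 4.39% of all genes rose and 8.25% fell. Gpr56, an adhesion receptor of stem and early progenitor cells, had 1000, 1203 and 1040 CPM at 4 weeks and 477.3, 531.2 and 406.6 CPM at 2 weeks (1.19 ± 0.15, adjusted p = 1.12e-05). Mycn, a relative of Myc, had 255.3, 327.8 and 366.2 CPM at 4 weeks and 212, 167.6 and 139.4 CPM at 2 weeks (0.88 ± 0.18, adjusted p = 0.0016). Procr, the stem cell marker EPCR, stood at 1.97 to 2.70 CPM at 4 weeks and at 5.81 to 23.0 CPM at 2 weeks, and its call was lost without replicate 3 of either group. Among 14 genes regulated by STAT5, which acts below activated Flt3, 1 fell and 1 rose, near the shares of all genes that did. Ccnd1 (cyclin D1) fell by 3.11 ± 0.66 on the log2 scale (adjusted p = 0.00215), and the call of Socs1 (0.88) was lost in most alternatives.

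The other lists gave few calls, to be read against the 8.25% of all genes that fell and the 4.39% that rose. T and NK cell genes fell in 3 and rose in 2 of 9 tested, and the 3 became 1 without replicate 3 of the 2-week group. Cd3g, a chain of the T cell receptor complex, had 0 counts at 4 weeks and 47 at 2 weeks, at least 32.58-fold lower at 4 weeks. Lck, a kinase of T cells, went the other way, with 193.4, 195.4 and 207.1 CPM at 4 weeks and 87.0, 106.2 and 134.8 CPM at 2 weeks (0.86 ± 0.17, adjusted p = 0.000954). Interferon response genes fell in 4 of 23 tested, led by the nucleic acid sensor Zbp1 (-2.42, adjusted p = 0.000716), and 1 rose. The 4 became 2 without replicate 3 of the 2-week group or replicate 1 of the 4-week group. Targets of p53 fell in 3 of 9 and 1 rose. Of this list Btg2, which fell, also stands in the early response list, and Trp53inp1 in the plasma cell list. Pmaip1, which fell, lost its call without replicate 2 of the 2-week group or replicate 1 or 3 of the 4-week group. Cdkn1a, which rose, lost it without replicate 3 of the 2-week group or replicate 2 of the 4-week group. Heat shock genes fell in 1 of 11, near the share of all genes that fell, and 2 rose. Hspa1a, the gene that fell, lost its call without any 1 of the 2-week libraries (-3.02 to -3.39, adjusted p 0.0526 to 0.11). Hspa1b did not pass in the main fit but did in DESeq2 (-2.98, adjusted p = 0.0378). Hsph1, which rose, lost its call without replicate 2 of either group. The primary granule list gave no stable direction. Of 11 tested genes, Mpo and Nkg7 rose and 0 fell, whereas without replicate 1 of the 4-week group 0 rose and 2 fell, Elane (-1.57, adjusted p = 0.00875) and Ms4a3 (-1.49, adjusted p = 0.00744). Of 11 glycolysis genes 1 fell, Hk2. By edgeR and by DESeq2, 0 of 12 cholesterol synthesis, 0 of 7 mitochondrial genome and 0 of 9 Hox and cofactor genes passed. At an unadjusted p under 0.05 in edgeR these counts were 2, 0 and 3 (1 lower and 2 higher). Xist, the 1 tested sex-linked gene, differed by -0.73 (adjusted p = 0.566).

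By size, the 12 largest rises were led by Slc35d3, a member of the nucleotide sugar transporter family needed for platelet dense granules, with 32.9, 41.4 and 48.4 CPM at 4 weeks and 4.21, 7.47 and 8.06 CPM at 2 weeks (2.59 ± 0.41, adjusted p = 9.8e-05). The others were Zfp760, Scin, Pdgfrb, Ffar2, Gtf3c4, Frmd6, Zfp184, Bivm, Med23, Epdr1 and Cbx2, with differences of 1.59 to 2.54. Of the 12, 9 lost their call in at least 1 alternative, which for Gtf3c4 was only the fit without replicate 2 of the 2-week group. The 12 largest falls were taken among genes with a mean log2 CPM of 4 or more and no overlap between groups, passing over immunoglobulins and genes listed under clone names, such as 2010001M09Rik (Mzb1) at -8.15. They were Igj, Prss34, Car1, Egr1, Gdf3, Fos, Prg2, Cadm1, Traf1, Klf2, Gata1 and Slamf7. Prg2 and Cadm1 lost their calls without several of the single libraries. The plasma cell list gave 2 of the 12, the early response list 3, the basophil list 2 and the erythroid list 2. Traf1, an adaptor of tumor necrosis factor receptors, had 9.87, 0 and 5.38 CPM at 4 weeks and 50.5, 84.7 and 68.0 CPM at 2 weeks (-3.64 ± 0.60, adjusted p = 0.000453). The list of NF-kB and inflammatory genes had 5 of 11 tested genes lower, where 8.25% of all genes were. It had 3 when replicate 3 of the 2-week group or any 4-week replicate was left out.

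The 2-week libraries also stood apart from the later times together and from WT. These comparisons share the 2-week libraries with the one above, so they are given as values only. For the mean of 4, 6 and 8 weeks over 2 weeks, 1693 genes changed (17.1%), of which 1093 fell (11.0%) and 600 rose (6.07%). In it 23 plasma cell genes and 14 early response genes fell, and Fos differed by -4.82 ± 0.16. For 2-week Flt3 LSK over 4-week WT LSK, 1095 genes were higher (11.1%) and 790 lower (7.99%), and 22 plasma cell genes, 13 early response genes and 18 class II and dendritic genes were higher. Fos had 1199, 1532 and 1451 CPM in 2-week Flt3 LSK, against 81.4, 101.4 and 130.3 CPM in WT LSK (3.74 ± 0.22, adjusted p = 7.95e-10). Without replicate 3 of the 2-week group the 1693 genes became 988. The WT libraries were taken at 4 weeks, and their codes have another prefix than those of all Flt3 libraries. Genotype, time and whatever the prefix stands for cannot be told apart in the comparison with WT.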

How the data were processed

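RNA of sorted LSK and GMP cells was sequenced in 30 libraries of the table used here. Per the submitters' processing notes the authors used STAR, featureCounts and mm10, and what they deposited is a table of raw read counts for 33924 gene symbols. Versions, annotation, strand setting and which of the 2 kits named in the labels made which library are not given in the sources used here. Without strand information, reads of overlapping genes cannot be told apart.

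The deposited counts were tested with edgeR 4.0.16 in R 4.3.3 (quasi-likelihood, robust, TMM scaling, filterByExpr, Benjamini-Hochberg adjustment, threshold 0.05) in 1 fit of the 15 LSK libraries. The comparison of LSK with GMP used 1 fit of 30 libraries. Alternatives were DESeq2 1.42.0, other filters, scalings and sets of libraries, a block on the title number, and leaving out each library. Library totals ranged from 306571 to 3030228 counts in LSK. Genes at 0 over a group were set against a floor of 3 counts.

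The 30 gene lists hold 448 genes, of which 434 matched by symbol, 7 by an older symbol and 7 not at all, and 16 lists share genes with another. Members and lists were chosen with earlier results of these data known, so counts over them are descriptions. Named are all called genes of the plasma cell and early response lists or their range, up to 4 genes of each other list by smallest p, the sort markers, and the 12 largest rises and falls whose groups do not overlap (mean log2 CPM at least 4). Immunoglobulins, clone names, predicted and sex-linked genes were passed over there. Other names were chosen after their values were seen. Title numbers did not pair the libraries.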

Additional observations from a re-analysis of the deposited data

Results flagged for a closer look

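The 4-week over 2-week change was compared between LSK and GMP by edgeR's quasi-likelihood test with Benjamini-Hochberg adjustment over 10287 genes, of which 102 passed (0.992%). Only Flt3 and the plasma cell and early response lists were examined gene by gene here, 46 genes in all, and 9 of them passed. The lists were written with earlier results known, and some members passed the filter on low counts chiefly through 2-week LSK. The 9 describe the lists and do not test them. The values are the LSK log2 change minus the GMP log2 change, 3 libraries a group. In 8 plasma cell genes the fall was larger in LSK: -8.86 for Igkc (adjusted p = 0.00601), -4.41 for Ighm (0.000347), -1.14 for Xbp1 (0.0048), -8.37 for 2010001M09Rik, which is Mzb1 (0.0332), -6.01 for Sdc1 (0.0126), -1.82 for Txndc5 (0.000114), -1.73 for Edem1 (0.00102) and -3.92 for Trp53inp1 (0.037). Ier3, an early response gene, differed by 2.29 (0.000745), its levels being 23.7, 32.4 and 51.6 CPM in 4-week LSK and 66.0, 40.7 and 42.6 CPM in 2-week LSK, against 11.0, 33.8 and 29.6 CPM in 4-week GMP and 143.4, 172.8 and 186.9 CPM in 2-week GMP.

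Of these, 5 kept their call in every alternative and 4 did not. Igkc was at an adjusted p of 0.0689 or 0.0756 without replicate 2 or 3 of the 4-week GMP, and Sdc1 at 0.452 without replicate 1 of that group and at 0.0717 without replicate 3 of the 4-week LSK. Mzb1 was at an adjusted p of 1 without replicate 2 of the 4-week GMP, the single library of that group with any Mzb1 count, and at 0.0524 and 0.0858 without replicate 2 of the 2-week GMP and replicate 3 of the 4-week LSK. Trp53inp1 lost its call without any 1 of 10 of the 12 libraries (adjusted p 0.0587 to 0.159). Other genes gained a call. Igj did not pass in the main fit but did in edgeR with the code shared by LSK and GMP as a block (-8.70, adjusted p = 3.33e-06). It also passed in DESeq2 without the library with the fewest counts (-8.64, adjusted p = 1.09e-08). Ighg1, Iglc2, Iglc3, Tnfrsf13b, Ier5 and Btg2 likewise passed in some alternatives only.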

How the results depend on the processing

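No gene called in the report changed sign. Some uncalled genes did, as did medians near 0 of the heat shock and iron-recycling lists, and the primary granule list also changed its calls. Its median of 0.18 became -0.01 without replicate 1 of the 4-week group and -0.02 without replicate 2 of the 2-week group, and its calls turned from 0 lower and 2 higher to 2 lower and 0 higher in the first of these. Leaving out 1 library moved the counts most. For 4 over 2 weeks in LSK, 198 to 405 genes rose, against 434 with all libraries, and 503 to 741 fell, against 816. For the mean of the later times over 2 weeks 988 to 1888 genes changed, against 1693, and for 2-week Flt3 LSK over WT LSK 1406 to 1672, against 1885. The difference between the LSK and GMP changes passed for 64 to 89 genes, against 102, with 64 without replicate 3 of the 4-week LSK and 66 without replicate 2 of the 4-week GMP. These fits hold 1 library fewer, and the cause was not tested further. All other settings stayed within 1.5 times of the counts reported, with 311 to 588 genes higher and 711 to 980 lower at 4 weeks, DESeq2 giving 377 and 891. Of the 118 named genes called in that comparison, 78 were called in every alternative.

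The title numbers shared between groups did not pair the libraries: deviations from the group means correlated at -0.0953, 0.0156 and -0.0543, and 1 of 6 libraries correlated best with its own number. With the number as a replicate block 346 genes rose and 711 fell at 4 weeks, 1542 changed against the later times and 1690 against WT. With the code shared by LSK and GMP libraries as a block, 149 genes differed between LSK and GMP. The shallowest 2-week library held 826477 counts, so genes at a few CPM rest on few counts.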
